A study of Mus musculus with 6 samples.

Results

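The 10 genes described here encode antibody chains and proteins of the cells that secrete them. They are the constant regions of the heavy chain isotypes IgA (Igha), IgM (Ighm), IgG1 (Ighg1), IgG2b (Ighg2b), IgG2c (Ighg2c) and IgG3 (Ighg3), the kappa light chain constant region (Igkc), the joining chain (Jchain) and the plasma cell genes Mzb1 and Xbp1. They were chosen by symbol from the 46078 genes of the count tables, each matched 1 row, and all 10 passed the filter on low counts that left 17254 genes. Each library was RNA of a pool of 3 adenomas from the small intestine of 1 mouse, so the mouse is the replicate. Knockout mice were miR-34a/b/c-/-;ApcMin/+ and wild-type mice miR-34a/b/c+/+;ApcMin/+, with 3 libraries in each group. All mice were C57BL6/SV129 and 18 weeks old, and all carried the ApcMin allele, which gives rise to intestinal polyps, so neither group is tumor-free or has an intact Apc gene pair.

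An antibody is built of paired heavy and light chains, and the constant region of the heavy chain sets its isotype. A B cell first uses Ighm and can switch to a gene further along the same locus, after which a plasma cell makes the chosen isotype in large amounts. In the gut lamina propria most plasma cells make IgA, whose dimers are held together by the joining chain and carried across the epithelium by the receptor Pigr. Mzb1 is an endoplasmic reticulum protein that helps antibody chains assemble, and Xbp1 is a transcription factor of the unfolded protein response that plasma cells need but that secretory epithelial cells use as well.

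Library totals ranged from 26375035 to 38354355 counts. By their Xist and Y-linked counts, knockout replicate 2 and wild-type replicate 3 were from male mice and the other 4 from female mice. Levels are given in CPM, the count scaled to library size with TMM factors. Epcam, a marker of the epithelium that adenomas grow from, was at 2057 ± 236 CPM for knockout and 2546 ± 180.0 CPM for wild-type tumors (SD, n = 3 each). Its level was lower in each knockout library (2136, 2244 and 1792 CPM) than in each wild-type library (2564, 2357 and 2716 CPM). The keratins Krt8 (3945 ± 412 and 4353 ± 921 CPM) and Krt18 (993 ± 230 and 887 ± 139 CPM) overlapped between groups. Of 6 epithelial markers, Epcam alone did not overlap, and 0 passed the genotype test described below (adjusted p = 0.805 for Epcam, edgeR). Their median log2 fold change of knockout over wild-type was -0.064. In bulk tumor RNA, fewer plasma cells and less RNA per plasma cell cannot be told apart. The reference genome is C57BL/6, which carries Ighg2c where some other inbred strains carry Ighg2a, and how reads of another strain's locus were counted was not tested.

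The deleted microRNAs are miR-34a, miR-34b and miR-34c. The mature forms of miR-34a-5p and miR-34b-5p, which share a seed, are shown (miR-34c-5p is not shown) with the seed (bases 2 to 8) in capitals, from the RefSeq table of build GRCm38.p6, where miR-34a-5p lies on chromosome 4 (150068473 to 150068494, plus strand) and miR-34b-5p on chromosome 9 (51103610 to 51103632, minus strand).
miR-34a-5p: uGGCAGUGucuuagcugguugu
miR-34b-5p: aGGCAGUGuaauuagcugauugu
The target of both seeds is CACTGCC, which was searched on the transcript strand of the longest 3′ UTR annotated in GENCODE M21. It occurred in 15.1% of 21824 genes with such a UTR, and in 2 of the 10 members, Ighg2b and Ighg3, once each. In both, the UTR is that of a longer transcript than the secreted form. These sites are shown with the match in capitals, since they are the only ones among the members, and Igha, Ighm, Ighg1, Ighg2c, Igkc, Jchain, Mzb1 and Xbp1 held no match.
Ighg2b: aagacaaggcCACTGCCacctccagag
Ighg3: acacgggttaCACTGCCttctcatctc
A match is a description of the letters and not a site of action.

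The 4 IgG genes are close relatives, and the exon that encodes the hinge between the antibody arms and stem tells them apart. The hinge exons are exon 2 of each gene on the minus strand of chromosome 12 (GRCm38), at 113329844 to 113329882 in Ighg1, 113307261 to 113307326 in Ighg2b, 113288263 to 113288325 in Ighg2c and 113360529 to 113360576 in Ighg3. They are shown because the isotypes below were counted as separate genes, with the in-frame cysteine codons, whose residues can link heavy chains, in capitals.
Ighg1: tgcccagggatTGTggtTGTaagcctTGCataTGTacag
Ighg2b: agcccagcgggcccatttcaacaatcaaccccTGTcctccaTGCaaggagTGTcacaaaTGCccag
Ighg2c: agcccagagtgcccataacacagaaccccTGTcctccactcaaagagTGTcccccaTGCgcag
Ighg3: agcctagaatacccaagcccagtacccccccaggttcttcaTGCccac
Hinge length ran from 39 bases in Ighg1 to 66 in Ighg2b, with 4, 4, 3 and 1 cysteine codons in the order shown. Of the runs of 50 bases in the annotated transcripts of each gene, 0.393% of those of Ighg1, 4.15% of Ighg2b, 5.49% of Ighg2c and 1.58% of Ighg3 also occurred in another gene, and none of those of Igha, Ighm, Igkc, Jchain or Xbp1 did. Mzb1 shared 53.5% of its runs with an overlapping transcript annotated as SPATA24, so its count is uncertain if reads were divided between them.

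Nearly all heavy chain message was of IgA. Igha took between 97.9% and 99.7% of the heavy chain constant counts in every library, and from 0.124% to 0.573% of all counts. On a scale that allows for annotated exon length (CPM per kilobase of exon), the mean over the 6 libraries was 2934 for Igkc, 1474 for Igha, 332 for Jchain, 86.4 for Xbp1 and 9.93 for Mzb1. The other heavy chains followed at 4.37 for Ighm, 3.05 for Ighg1, 1.66 for Ighg2b, 1.34 for Ighg2c and 0.591 for Ighg3 on the same scale. In wild-type tumors the levels per kilobase of Igkc (4052 ± 1442), Igha (1952 ± 384) and Jchain (446 ± 90.2) were further apart than their SDs (n = 3). The SDs of Ighg2b (2.13 ± 0.915), Ighg2c (1.87 ± 0.257) and Ighg1 (1.45 ± 0.407) overlapped. Per kilobase of exon Ighg2c lay above Ighg1 in each wild-type library, with exonic lengths of 1326 bases for Ighg2c and 2592 for Ighg1. In CPM the order was reversed, with 2.70, 3.74 and 4.81 for Ighg1 and 2.58, 2.11 and 2.77 for Ighg2c in wild-type replicates 1, 2 and 3. In knockout tumors the SDs of Igkc (1816 ± 951) and Igha (996 ± 489) overlapped, as did those of Ighg1 (4.65 ± 2.58) and Ighm (4.53 ± 1.18). Within each knockout library, however, Igkc lay above Igha per kilobase of exon. The knockout libraries had 339, 385 and 350 Igkc counts per 1000 Igha counts, with exonic lengths of 532 bases for Igkc and 2668 for Igha. The order of Igkc and Igha, and that of Ighm and Ighg1, turned with the length used. Per kilobase of the secreted transcript Igha had 3575 and Igkc 2934, because the annotated exons of Igha include a long membrane form. On that length Ighg1 had 7.34, Ighm 5.52, Ighg2b 3.99, Ighg2c 1.60 and Ighg3 0.591.

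Igha, Igkc, Jchain, Mzb1 and Xbp1 were lower in each knockout library than in each wild-type library, and Ighg1 was highest in 2 of the 3 knockout libraries, but 0 of the 10 members passed the genotype test. Genotypes were compared by the quasi-likelihood test of edgeR with Benjamini-Hochberg adjustment at 0.05, which called 0.0927% of all genes. At an unadjusted p below 0.05, 3 members were lower (Igkc, Jchain and Xbp1), where 2.58% of all genes were, and 1 was higher (Ighg1), where 3.27% were, and both directions together came to 4 members and 5.85% of all genes. The lower count was 0 when either replicate 2 or replicate 3 of the wild-type group was left out and 1 (Jchain) without knockout replicate 1. It was 6 with limma-voom and 5 with DESeq2, whereas Ighg1 was counted as higher in each of these fits. Over all genes, the lower count was 236 of 17653 without wild-type replicate 2 and 439 of 17780 without wild-type replicate 3. It was 389 of 17723 without knockout replicate 1, 430 of 17254 with limma-voom and 601 of 29082 with DESeq2, against 445 of 17254 in the main fit. The limma-voom fit called 0 members after adjustment. DESeq2 called 1 member, Ighg1 (adjusted p = 0.0455), where it called 0.505% of the genes it tested. Groups did not overlap for 5 members, all lower in the knockout, where 5.34% of all genes were lower without overlap, and 0 members were higher without overlap, where 5.86% of all genes were. In all, 7 members had a negative fold change, as had 48.9% of all genes. Genes of one cell type are not independent of each other. The median log2 fold change was -0.83 over the 10 members and 0.0073 over all genes tested, and the members' median was -0.45 when knockout replicate 1 was left out.

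**Figure D1:**
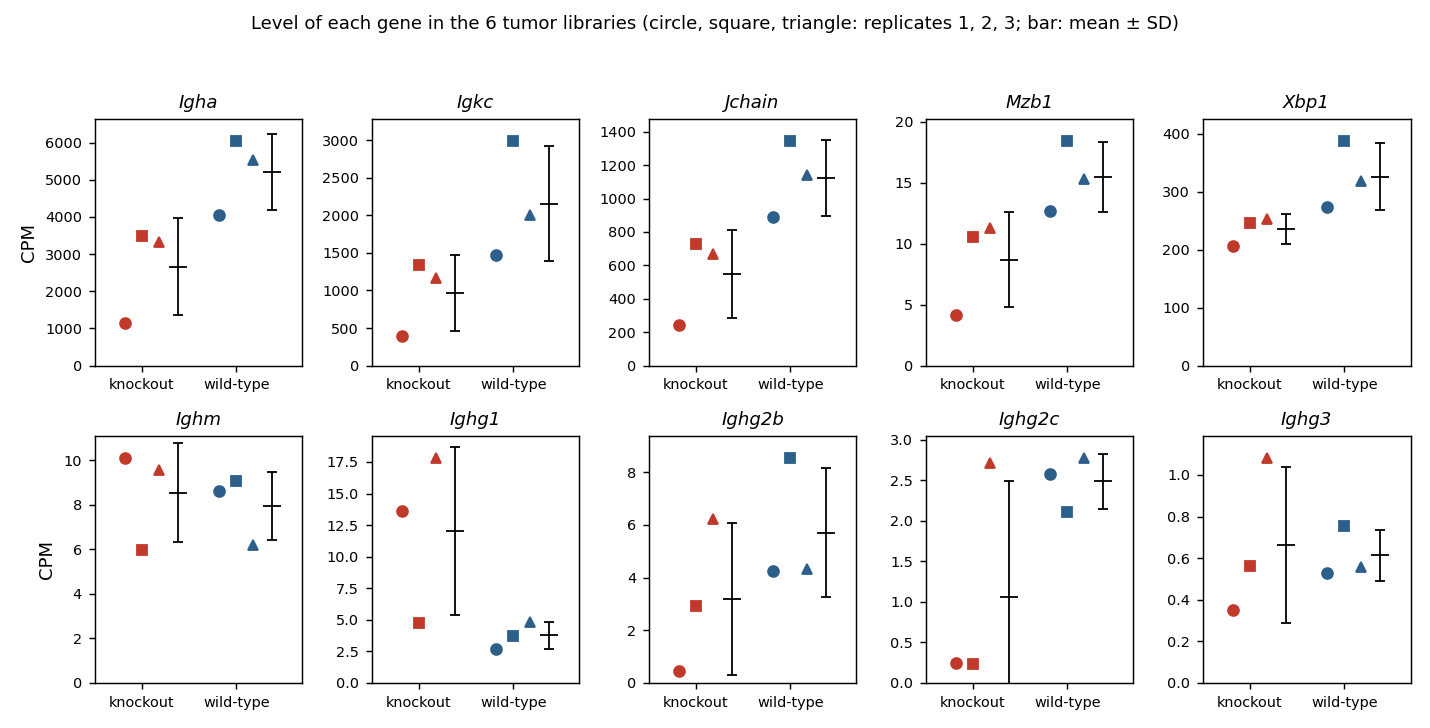
Level in CPM (vertical axis, from 0, a separate scale per gene) of the 10 genes in the 3 knockout and 3 wild-type libraries. Points are libraries, with circles, squares and triangles for replicates 1, 2 and 3, and the bar is the mean ± SD, cut at 0 where it reaches below (Ighg2c, knockout). In the upper row the knockout points lie below the wild-type points, with knockout replicate 1 lowest, and Ighg1 in the lower row has knockout replicates 1 and 3 above all other libraries.

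Igha (ENSMUSG00000095079, mm10 chromosome 12, 113254830 to 113260236), the IgA heavy chain, had 1154, 3483 and 3334.5 CPM in knockout replicates 1, 2 and 3 and 4063, 6040 and 5521 CPM in the wild-type replicates. The groups did not overlap, and knockout replicate 1 lay far below the other knockout libraries. The means were 2657 ± 1304 and 5208 ± 1025.0 CPM (SD, n = 3), or a log2 change of -0.97 ± 0.44 (SE, adjusted p = 0.793, edgeR).

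Igkc (chromosome 6, 70726435 to 70726966), the constant region of the kappa light chain that pairs with any heavy chain, had 391, 1341 and 1167 CPM among knockout and 1473, 2986 and 2008 CPM among wild-type tumors. Again replicate 1 was the lowest knockout library, and wild-type replicate 2 stood highest. The log2 fold change was -1.16 ± 0.49 (adjusted p = 0.793, edgeR).

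Jchain (chromosome 5, 88519809 to 88527891), the link of IgA dimers and IgM pentamers, had 245, 726 and 669 CPM among knockout and 889.6, 1343 and 1138.5 CPM among wild-type tumors, which gave a log2 change of -1.04 ± 0.41 (adjusted p = 0.793, edgeR). Mzb1 (chromosome 18, 35647266 to 35649367) had 4.19, 10.5 and 11.3 CPM among knockout and 12.6, 18.4 and 15.3 CPM among wild-type tumors (-0.83 ± 0.37, adjusted p = 0.793, edgeR). The order of the libraries was close to that of Igha for both genes, lowest in knockout replicate 1 and highest in wild-type replicate 2.

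Xbp1 (chromosome 11, 5520659 to 5525893) differed least of the 5 genes. It had 206, 247 and 253 CPM among knockout and 273, 387 and 318 CPM among wild-type tumors, or a log2 change of -0.47 ± 0.17 (adjusted p = 0.793, edgeR). The counts sum its spliced and unspliced messages, which a gene count does not separate. Goblet cell markers, genes of epithelial mucus cells that also use Xbp1, had a summed level of 4889 to 9121 CPM among knockout and 6914.5 to 8607 CPM in wild-type libraries, with 7 of 9 lower and 0 called. Paneth cell markers, of another secretory epithelial cell, had 988 to 1999.6 CPM among knockout and 681 to 807 CPM in wild-type libraries, with 7 of 7 higher and 0 called (5 of 7 higher without knockout replicate 3 or without wild-type replicate 1). Goblet Tff3 had 488 ± 181 and 707 ± 257 CPM and Zg16 661 ± 370 and 1083 ± 161 CPM, and the Paneth genes Lyz1, Ang4 and Itln1 had 807 ± 444 and 362 ± 21.8, 166 ± 142 and 25.1 ± 9.80, and 261 ± 89.6 and 133 ± 24.1 CPM (knockout and wild-type). Their part in the level of Xbp1 was not tested.

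The size of the difference rested partly on knockout replicate 1. Without it, the log2 fold changes were -0.62 for Igha, -0.79 for Igkc, -0.69 for Jchain, -0.51 for Mzb1 and -0.39 for Xbp1, with an adjusted p of 0.903 for each (edgeR), and the values for Igha and Mzb1 moved by more than 1.5 times. Over the 6 fits that left out 1 library each, Igha ranged from -1.21 to -0.62, Jchain from -1.30 to -0.69 and Xbp1 from -0.59 to -0.33.

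**Figure D2:**
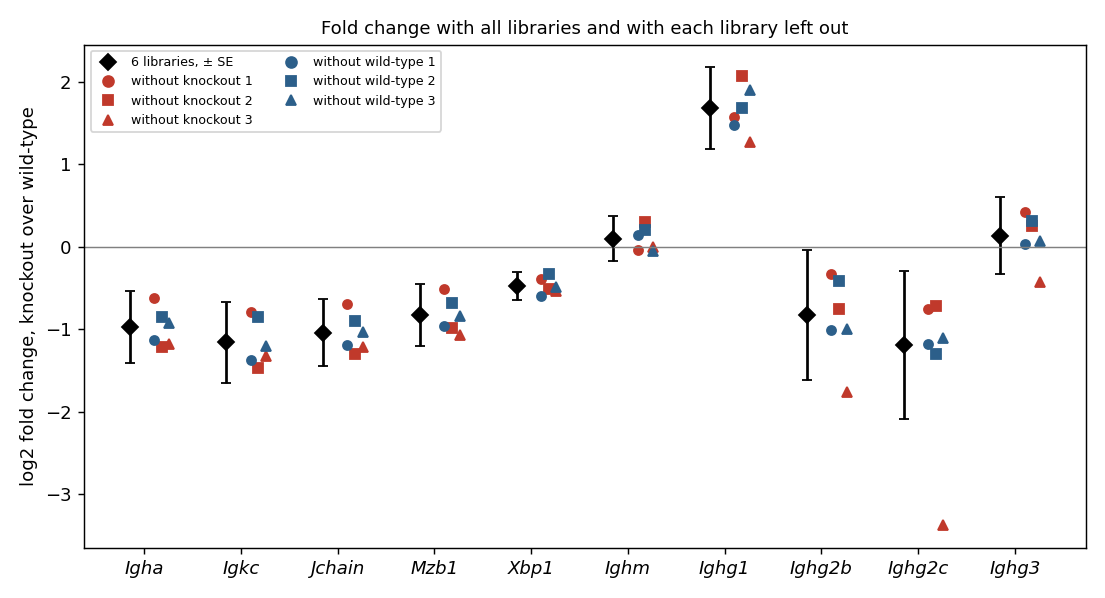
Log2 fold change of knockout over wild-type (vertical axis) for each gene, from all 6 libraries with its SE (black) and with each library left out in turn (red, a knockout library; blue, a wild-type library). Igha, Igkc, Jchain, Mzb1 and Xbp1 stay below 0 and Ighg1 above 0 in each fit, while Ighm and Ighg3 lie on both sides of 0.

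The IgG genes differed in direction and in which libraries stood apart. Ighg1 (ENSMUSG00000076614, chromosome 12, 113325240 to 113330523), the isotype of many T cell dependent responses, had 13.6, 4.72 and 17.8 CPM among knockout and 2.70, 3.74 and 4.81 CPM among wild-type tumors. Knockout replicates 1 and 3 stood above every wild-type library and replicate 2 lay just within the wild-type range. The means were 12.05 ± 6.67 and 3.75 ± 1.06 CPM (SD, n = 3), or a log2 change of 1.68 ± 0.49 (unadjusted p = 0.0112, adjusted p = 0.793, edgeR).

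Ighg2b (chromosome 12, 113302965 to 113307933) had 13, 88 and 259 counts in knockout and 137, 271 and 154 counts in wild-type libraries. Ighg2c (chromosome 12, 113285325 to 113288932) had 7, 7 and 113 counts in knockout and 83, 67 and 99 in wild-type libraries. In CPM, which allows for depth, the wild-type replicates had 4.26, 8.53 and 4.31 for Ighg2b and 2.58, 2.11 and 2.77 for Ighg2c. Knockout replicate 3 lay among them for both genes (6.22 and 2.71). Knockout replicate 1 lay far below them for both (0.458 and 0.247), and replicate 2 was as low as replicate 1 for Ighg2c alone (0.231). The log2 fold changes were -0.82 ± 0.79 for Ighg2b and -1.19 ± 0.90 for Ighg2c (adjusted p = 0.832 and 0.813, edgeR), and without knockout replicate 3 they were -1.76 and -3.37. Leaving out knockout replicate 1 gave -0.32 for Ighg2b and -0.75 for Ighg2c, leaving out knockout replicate 2 gave -0.72 for Ighg2c, and leaving out wild-type replicate 2 gave -0.41 for Ighg2b. The mice were of mixed C57BL6/SV129 strain, and whether the Ighg2c counts differ with the strain origin of the locus was not tested.

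Ighg3 (chromosome 12, 113359575 to 113361232), the rarest of the members, had 10, 17 and 45 counts in knockout and 17, 24 and 20 in wild-type libraries. Ighm (chromosome 12, 113418558 to 113422730), the isotype of B cells before switching, had 286, 181 and 398 counts in knockout and 277, 288 and 222 in wild-type libraries. For both genes the groups overlapped, with log2 fold changes of 0.14 ± 0.47 for Ighg3 and 0.10 ± 0.27 for Ighm (adjusted p = 0.955 and 0.941, edgeR), and each turned sign when a library was left out.

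Ratios within a library do not depend on library scaling and show the levels of the members against each other. The joining chain kept close to Igha, with 212, 208 and 201 Jchain counts per 1000 Igha counts in knockout and 219, 222 and 206 in wild-type libraries, a span of 1.11 times over all 6 while Igha itself in CPM ranged from 1154 to 6040. Mzb1 had 3.02 to 3.63 counts per 1000 Igha counts in knockout and 2.77 to 3.11 in wild-type libraries, and Igkc had 339 to 385 and 363 to 494. In these 3 ratios the groups overlapped.

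Ighg1 departed from that pattern. It had 11.8, 1.36 and 5.33 counts per 1000 Igha counts in knockout and 0.665, 0.620 and 0.872 in wild-type libraries, so that all 3 knockout libraries lay above all 3 wild-type libraries. The mean log2 ratio of Ighg1 to Igha was -7.83 ± 1.58 in knockout and -10.46 ± 0.26 in wild-type tumors (SD, n = 3), a difference of 2.63 (exact two-sided permutation p = 0.1, adjusted p = 0.3 over 9 ratios). With 3 against 3 libraries 0.1 is the smallest p possible, so this design cannot pass 0.05. Ighg3 and Xbp1 were also higher relative to Igha in each knockout library, with differences in the log2 ratio of 1.09 and 0.65 (exact permutation p = 0.1 for each, adjusted p = 0.3). Igha was itself lower in each knockout library, which raises every ratio to it. In CPM, Ighg1 and Ighg3 overlapped between groups, and Xbp1 was lower in each knockout library than in each wild-type library. Xbp1 had 178 counts per 1000 Igha counts in knockout replicate 1 and between 57.7 and 75.9 in the other 5 libraries, and its difference was 0.22 without that library. The Ighg1 difference ranged from 1.92 without knockout replicate 1 to 3.48 without knockout replicate 2.

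**Figure D3:**
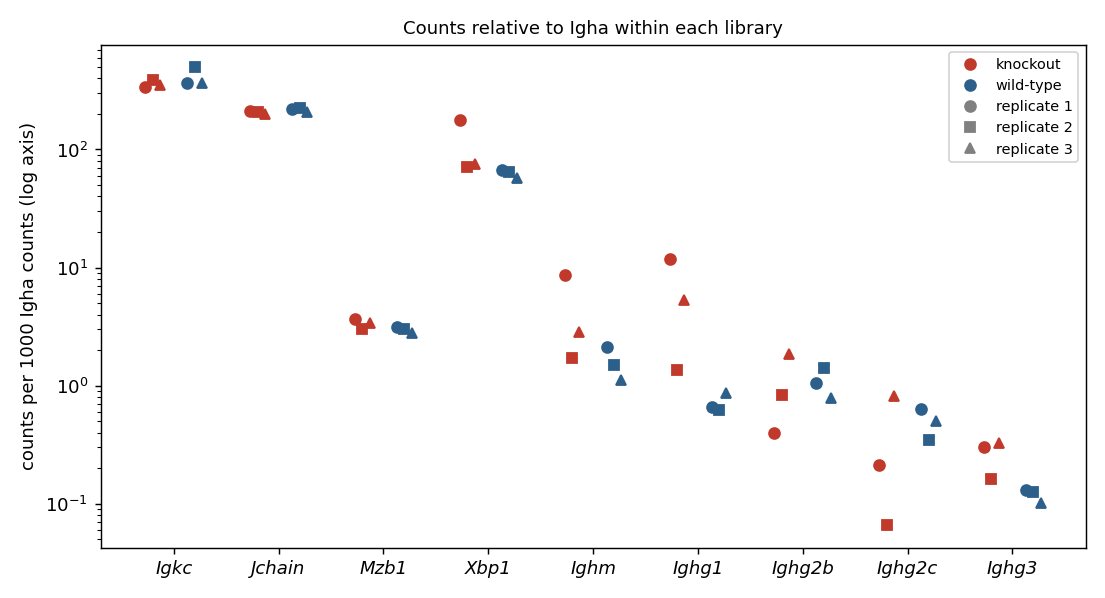
Counts of each gene per 1000 Igha counts (vertical log axis) in each library, with knockout libraries in red and wild-type libraries in blue, and circles, squares and triangles for replicates 1, 2 and 3. Jchain, Mzb1 and Igkc form tight rows, whereas Ighg1 runs from 0.620 to 11.8 with the knockout libraries on top.

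As a share of all heavy chain constant counts, Ighg1 made up 1.16% of the total in knockout replicate 1 (exact 95% interval 1.05% to 1.28%), 0.135% in replicate 2 (0.114% to 0.159%) and 0.527% in replicate 3 (0.490% to 0.567%). In wild-type replicates 1, 2 and 3 it made up 0.0662% (0.0530% to 0.0817%), 0.0617% (0.0511% to 0.0739%) and 0.0869% (0.0744% to 0.101%). No knockout interval touched a wild-type interval, and the intervals cover counting error only. Nearly all of each total was Igha, which was lower in each knockout library, so the share largely repeats the ratio to Igha. By CPM the separation was not complete. Ighg1 had 4.72 CPM in knockout replicate 2, less than the 4.81 CPM of wild-type replicate 3. Knockout replicates 1 and 3, at 13.6 and 17.8 CPM, exceeded all wild-type libraries. The share was 0.606% ± 0.516 in knockout and 0.0716% ± 0.0134 in wild-type tumors (SD, n = 3, exact permutation p = 0.1, adjusted p = 0.32 over 8 isotypes), a difference of 0.535 percentage points that was 0.260 without knockout replicate 1. The share of Igha was 98.8% ± 0.847 against 99.6% ± 0.0594, and that of Ighm was 0.436% ± 0.367 against 0.157% ± 0.0498 (exact p = 0.2 for each, adjusted p = 0.32), and both overlapped between groups. Without knockout replicate 1 the difference went from -0.815 to -0.369 percentage points for Igha and from 0.279 to 0.0696 for Ighm.

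The remaining constant genes were rare or variable. Ighd, the isotype that naive B cells carry beside IgM, had 2 to 9 counts per library, and Ighe, the isotype bound by mast cells, had 1 to 16, so neither passed the filter. Of the lambda light chains, Iglc1 had 845, 1829 and 7566 counts in knockout and 3363, 4690 and 4074 in wild-type libraries. Knockout replicate 3 thus had the highest Iglc1 count and the other knockout libraries the lowest counts. Iglc2 had 115, 404 and 198 counts against 1205, 455 and 232, with wild-type replicate 1 standing apart. Iglc3 had 0.911 ± 0.112 CPM among knockout and 2.44 ± 0.990 CPM among wild-type tumors without overlap (log2 fold change -1.41 ± 0.39, adjusted p = 0.791, edgeR), but shares 10.7% of its 50-base runs with Iglc2. Kappa made up 91.9%, 94.7% and 86.2% of light chain constant counts in knockout and 91.1%, 94.8% and 94.3% in wild-type libraries, which overlapped (exact permutation p = 0.6, n = 3 each). The difference of -2.45 percentage points was -0.072 without knockout replicate 3.

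Other plasma cell genes were on both sides of 0. Of 14 genes of the plasma cell programme, 10 were lower and 4 higher in the knockout, 0 passed, with a median log2 change of -0.50. The median was -0.19 without knockout replicate 1, -0.81 without replicate 2 and -0.72 without replicate 3. Eaf2, an elongation factor partner induced in plasma cells, had 2.01, 1.58 and 1.56 CPM among knockout and 4.94, 9.16 and 7.75 CPM among wild-type tumors, with no overlap (log2 fold change -2.08 ± 0.31, adjusted p = 0.187, edgeR). DESeq2 called Eaf2 (adjusted p = 8.6e-08) and no other gene of this list. Derl3, which helps remove misfolded proteins from the endoplasmic reticulum, had 1.59, 4.36 and 4.49 CPM against 5.68, 9.75 and 6.30 CPM (-1.05 ± 0.43, adjusted p = 0.793, edgeR). The highest of the list per kilobase, Sdc1 (syndecan-1, a plasma cell marker that epithelium also makes), had 414 ± 44.3 and 402 ± 68.7 CPM, and the groups overlapped.

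Genes of the endoplasmic reticulum for folding and export, many of them Xbp1 targets, had values spread around 0. Of 24, 14 were higher and 10 lower, 0 passed, with a median log2 change of 0.07. With library size alone as the scaling the split was 18 higher and 6 lower, and without wild-type replicate 2 the median was -0.0026. Sec11c, a signal peptidase subunit, had 102, 84.0 and 97.5 CPM among knockout and 119, 125 and 117 CPM among wild-type tumors (-0.35 ± 0.12, adjusted p = 0.793, edgeR), and Ssr4, of the translocon-associated complex, had 109 ± 5.21 and 130.3 ± 14.9 CPM. The chaperone calreticulin gene Calr, the highest of the list per kilobase, had 1103.5 ± 51.9 and 1020.4 ± 109 CPM.

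**Figure D4:**
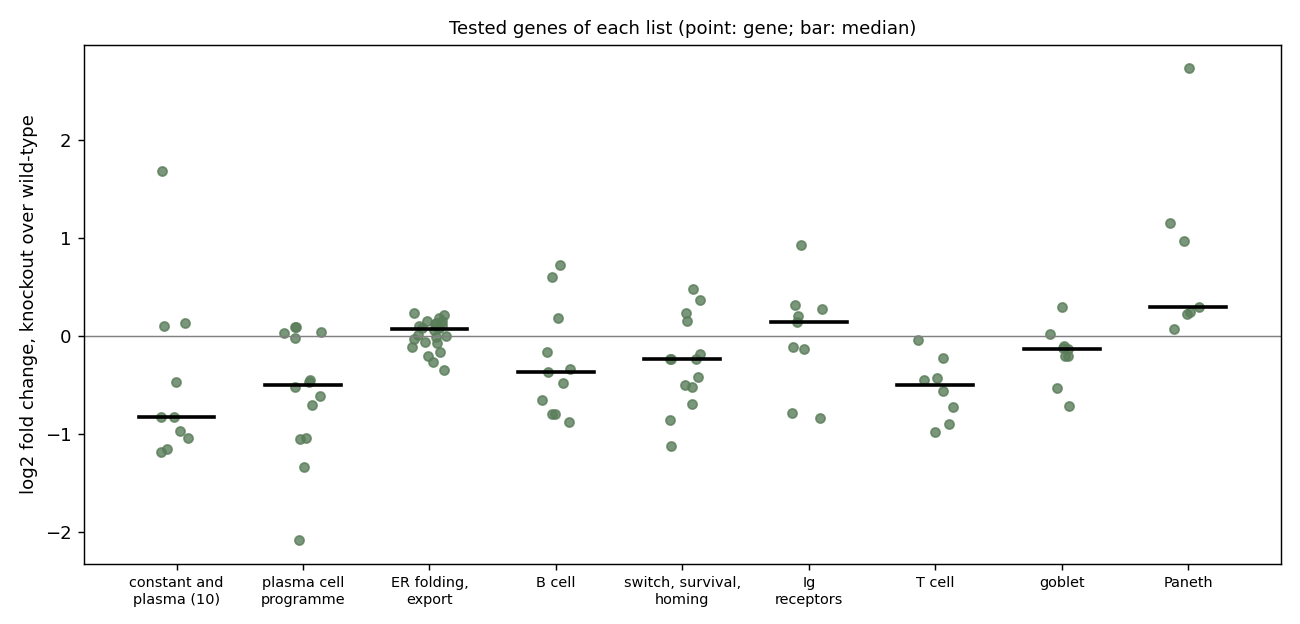
Log2 fold change of knockout over wild-type (vertical axis) for the tested genes of each list (points) with the list's median (bar). The 10 constant and plasma cell genes have a median of -0.83 with Ighg1 alone near 1.68, and the folding and export genes lie around 0.07.

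B cell genes other than the adaptor gene Blnk had group means of at most 8.65 CPM (Cd79a, a B cell receptor subunit, in wild-type tumors). Of 15, 11 passed the filter, 8 were lower and 3 higher, 0 passed the test, with a median log2 change of -0.37. The median was -0.23 without wild-type replicate 3, and 5 genes were higher without knockout replicate 1 and 1 without knockout replicate 3. The list summed to 71.3 to 92.7 CPM among knockout and 88.2 to 127 CPM in wild-type libraries. Blnk supplied most of that sum, with 62.0 of 71.3 CPM in knockout replicate 1 and 100.4 of 127 CPM in wild-type replicate 2. The list's member Pax5, a transcription factor of B cell identity, was near 0 (0.0517 ± 0.0617 against 0.00933 ± 0.0162 CPM). Cd79b, a B cell receptor subunit, had 2.24 ± 0.875 and 4.13 ± 1.47 CPM, and Blnk 63.5 ± 9.97 and 82.0 ± 15.9 CPM.

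Genes that guide switching, survival and homing of IgA cells gave a median log2 change of -0.23, and 10 of 14 tested genes were lower with 0 called. Leaving out 1 library gave medians of -0.55 (knockout replicate 2), -0.47 (wild-type replicate 1), -0.37 (knockout replicate 3), -0.14 (knockout replicate 1) and -0.11 (wild-type replicate 2). Ccr10, a homing receptor of IgA plasma cells, had 1.09, 2.21 and 1.85 CPM among knockout and 2.39, 3.59 and 3.39 CPM among wild-type tumors without overlap (-0.86 ± 0.35, adjusted p = 0.793, edgeR). Ltb, a lymphotoxin subunit of lymphoid tissue, had 1.77 ± 0.455 and 3.85 ± 0.996 CPM (-1.12 ± 0.32, adjusted p = 0.793, edgeR), and the chemokine Ccl25 had 138 ± 78.9 and 185 ± 22.8 CPM.

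Among 9 tested receptors for antibodies, 4 were lower and 5 higher with 0 called, and without wild-type replicate 1 the split turned to 6 lower and 3 higher. Pigr, which carries IgA into the gut lumen, had 1534.5, 4610.1 and 1945 CPM among knockout and 2071, 3431 and 3271 CPM among wild-type tumors, highest in knockout replicate 2 and lowest in knockout replicate 1. Fcgrt, the neonatal Fc receptor that recycles IgG, had 95.6 ± 36.4 and 165 ± 30.2 CPM (log2 fold change -0.79 ± 0.28, adjusted p = 0.793, edgeR), and Fcamr, a receptor of IgA and IgM, had 0.801 ± 0.404 and 1.42 ± 0.779 CPM.

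Markers of other immune cells passed in no case with edgeR. T cell genes were lower in 8 of 8 (median log2 fold change -0.50, 0 called) and summed to 19.5, 42.3 and 20.1 CPM among knockout and 35.1, 42.5 and 39.4 CPM in wild-type libraries, so that knockout replicate 2 reached the wild-type values. The T cell median was -1.17 without that library and -0.33 without knockout replicate 1, and with library size alone as the scaling 7 of 8 were lower. Trac had 3.43 ± 1.78 and 6.74 ± 1.01 CPM and Cd3e 2.79 ± 1.82 and 5.20 ± 1.36 CPM. Mast cell genes were higher in 6 of 6 (median 1.04, 0 called), with summed levels of 241 to 663 CPM for knockout and 83.8 to 439 CPM for wild-type libraries, and the median was 1.87 when wild-type replicate 3 was left out, 0.59 when wild-type replicate 2 was and 0.68 when knockout replicate 1 was. The proteases Mcpt1 (223 ± 129 and 118 ± 111 CPM), Mcpt4 (9.06 ± 3.88 and 3.97 ± 1.34 CPM) and Tpsb2 (17.0 ± 8.31 and 5.99 ± 6.84 CPM) were the named genes of that list. Myeloid genes were lower in 2 of 6, and those 2, Cd14 and Itgax, did not overlap between groups (19.4 ± 1.17 against 28.5 ± 0.683 CPM for Cd14 and 6.10 ± 1.43 against 10.96 ± 1.46 CPM for Itgax). Of the 4 that were higher, Adgre1 did not overlap either (6.66, 6.31 and 10.1 CPM against 4.75, 3.49 and 6.27 CPM). Lyz2, the highest myeloid gene per kilobase, had 58.8 ± 16.3 and 54.7 ± 17.7 CPM. Genes of lymphoid follicles summed to 29.5 to 37.4 CPM among knockout and 26.2 to 33.0 CPM in wild-type libraries, with 5 of 7 tested genes lower (3 of 7 without knockout replicate 1). Bcl6 and Spib supplied most of each sum. Spib, a factor of B cells and M cells, had 10.2 ± 3.93 and 4.07 ± 0.649 CPM. Gp2, an M cell protein, had 0.613 ± 0.241 and 2.25 ± 2.15 CPM, and Bcl6 18.6 ± 1.86 and 17.1 ± 4.34 CPM. DESeq2 called Spib (adjusted p = 0.0169), Cd14 (0.0492) and the Paneth gene Ang4 (0.000402) and no other gene of the marker lists of other cell types. The part of these cell types in the antibody levels was not tested.

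The genes whose log2 CPM (prior count 2) followed Jchain most closely over the 6 libraries, among 11513 genes outside the immunoglobulin loci with at least 5 CPM, were Acaa1b (Pearson r = 0.996), Mzb1 (0.994), Lax1 (0.992), Iah1 (0.991) and Derl3 (0.988). All 5 were lower in each knockout than in each wild-type library, as was Jchain. Their choice by likeness to Jchain favors this, so it is not a separate result. Those closest to Ighg1 were Glis3 (0.993), Ppp1r18 (0.986), Bin1 (0.986), Zzz3 (0.983) and Nab2 (0.981), and those closest to Ighm were Ranbp10 (0.995), Lrrc4 (0.992), Mat2a (0.991), 1810030O07Rik (0.989) and Prpf40b (0.988). They are the highest of many correlations over 6 libraries that share scaling and genotype, and are given as a description.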

How the data were processed

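Counts per Ensembl gene, 1 table per library, were deposited by the authors as whole numbers without normalization. Per the submitters' processing notes, TopHat2 2.1.0, HTSeq 0.6.1 and mm10 were used. How strand, annotation release, read length and multiply aligned reads were handled: not given in the sources used here. Groups and replicate numbers came from the sample titles. Each library is 1 mouse, so p-values measure the spread between mice.

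Symbols were found for 45229 of 46078 identifiers in GENCODE M21 (GRCm38, the same assembly as mm10). Coordinates are those of the deposited tables with the first base as 1, and exonic lengths are GENCODE exons inside the deposited interval. Genes were filtered with filterByExpr and TMM-normalized (edgeR 4.0.16, R 4.3.3), and fitted with the robust quasi-likelihood test. SE is the log2 fold change over the square root of F. Shares and ratios were tested by exact two-sided permutation, and exact 95% binomial intervals used scipy 1.17.1. Alternatives included DESeq2 1.42.0 and limma-voom (limma 3.58.1). Simulated counts with known changes were used to test the fit.

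The members and lists were chosen with earlier results of these data known. Named were the members, the other constant genes, the 2 genes of smallest p and the highest per length in each list, and the 5 genes most like Jchain, Ighm and Ighg1. Pax5, Cd79a and Adgre1 were named after their values were seen. Alternatives of secreted transcript length and of lists with a library left out were chosen after seeing the data.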

Additional observations from a re-analysis of the deposited data

How the results depend on the processing

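Igha, Igkc, Jchain, Mzb1, Xbp1, Ighg1, Ighg2b and Ighg2c kept the sign of their fold change in each of 16 alternative fits. Over all genes 16 were called, and 147 with DESeq2, which called 1 member, Ighg1 (adjusted p = 0.0455, against 0.793 with edgeR, whose fits with a library left out gave 0.0504 to 1.000; DESeq2 was not run with libraries left out). With 1 library left out the calls ranged from 9 to 41, with 9 without knockout replicate 1, 41 without replicate 2, 10 without replicate 3 and 29 without wild-type replicate 3, and called 0 members. Ighm ranged from -0.048 to 0.30, at -0.041 without knockout replicate 1 and lowest without wild-type replicate 3, and Ighg3 from -0.43 to 0.42, below 0 without knockout replicate 3 (log2 fold changes). Ighg3 could not be tested at 1 CPM in 3 libraries. The difference in share, in percentage points, ranged from -0.0466 to 0.0261 for Ighg2b and from -0.0355 to 0.00136 for Ighg2c, and the log2 ratio of Ighg2b to Igha from -0.87 to 0.25. The kappa difference was -2.45 points, 0.286 without Iglc1, and -4.36 to -0.072 with a library left out (smallest without knockout replicate 3, largest without knockout replicate 2). Of the folding and export genes, 10 were lower, and 6 to 12 with a library left out (6 without wild-type replicate 3). The replicate block called 14 genes and 0 members, and 5 members were lower at an unadjusted p below 0.05, against 3 without it. Over all 17254 genes tested, 724 were lower at that threshold with the block and 445 without it. The labels give same-numbered libraries only a number in common. Their deviations correlated at 0.218, 0.273 and 0.081. Differently numbered pairs correlated at -0.297 to 0.179, highest for knockout replicate 3 with wild-type replicate 1. Whether same-numbered libraries share a batch was not tested. Depth limits Ighg3, Ighd and Ighe, where a library holds few counts. A count of 0 allows up to 3 counts.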
